A study of Caenorhabditis elegans with 6 samples.

Results

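The DBL-1 Sma/Mab pathway sets body length in Caenorhabditis elegans, and 9 of its genes were followed here: dbl-1, lon-2, sma-6, daf-4, sma-2, sma-3, sma-4, sma-9 and lon-1. Every probe set that the platform annotation assigns to one of these symbols alone was taken, which gave 15 probe sets of 22548 tested, or 9 of 17118 genes. Of the 9 genes, 6 had 2 probe sets and 3 (sma-3, sma-4 and lon-1) had 1. No probe set with several symbols held any of them. Both groups were wild-type worms of the CC1 strain, of mixed stages, kept in the axenic liquid medium CeMM. The space group lived for several generations on the International Space Station, where it was exposed to space radiation and microgravity and was moved by a device to fresh medium about monthly. The ground control was passaged in step with it. Total RNA of each group was read on 3 Affymetrix arrays, labelled as technical replicates, so p-values here reflect array-to-array spread alone, and that spread may be technical. The sources do not say how many cultures stood behind a group.

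DBL-1 is a ligand of the bone morphogenetic protein kind, made mainly by neurons. It acts through a pair of receptor kinases on Smad proteins, which move to the nucleus of epidermal cells and change transcription. Mutants with too little signal are small (Sma) and the males have malformed tails (Mab), while too much signal, or loss of an inhibitor, gives long worms (Lon). In the worm the pathway is also known for roles in the cuticle collagens, in innate defence and in reproductive ageing.

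Array medians were 103 to 128 in the deposited intensity units, and 8 control probe sets for sequences absent from worms lay between 0.562 and 86.7. For actin, a control with probe sets at both transcript ends, the log2 5'/3' ratio ranged from -3.26 to -2.94 in space and from -4.30 to -3.59 on the ground, with no overlap. For Gapdh the groups overlapped, and ground control 3 had the lowest ratio (-3.65). Markers of the germline were higher on the space arrays for 8 of 10 genes, where 5.34% of all genes were. Their summed intensity was 11409 to 11985 in space against 5253 to 6551 on the ground. Markers of the hypodermis, the epidermis that makes the cuticle, were lower for 2 of 9 genes, where 2.42% of all genes were. Sums over the 9 were 4112 to 4657 in space and 6615 to 6927 on the ground. Much of that gap came from the called genes pdi-2 (means of 829 and 1898) and dpy-18 (574 and 1332). The brightest marker, lin-26, had a log2 fold change (space minus ground) of 0.02, and the other 8 were negative. The marker dpy-7 stayed below the brightest absent control on all arrays. The part of these differences in the results below was not tested. In whole-worm RNA, fewer cells of a type and less RNA per cell cannot be told apart.

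The comparison asked whether transcripts of this pathway differed between flown worms and their ground control. One gene passed the test: lon-1, which was about 5-fold dimmer on the space arrays. The ligand gene dbl-1 had a mean 1.99-fold lower in space on its brighter probe set but did not pass after adjustment. The receptor genes, the Smad genes and sma-9 did not pass on any probe set. A probe set was called when its limma adjusted p was under 0.05 and its means differed at least 2-fold on the scale log2(intensity + 16). By that rule 1 of 15 probe sets was called, where the share over the whole array was 7.31%. It was lower in space, as were 2.16% of all probe sets. None was higher, against 5.15% of all probe sets, and in limma 0 of 15 were higher at an unadjusted p under 0.05. At that unadjusted limit 2 of 15 differed, where 24.6% of all probe sets did. The median log2 fold change was -0.17 over the 15 probe sets and -0.01 over all tested. On the brighter probe set of each gene, 7 of 9 values were negative, with a median of -0.39 against -0.02 over all genes. Over the 15 probe sets 10 values were negative and 5 positive, where 50.4% of all tested probe sets were negative. In 4 of the 6 genes with 2 probe sets, the 2 had opposite signs.

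**Figure D1:**
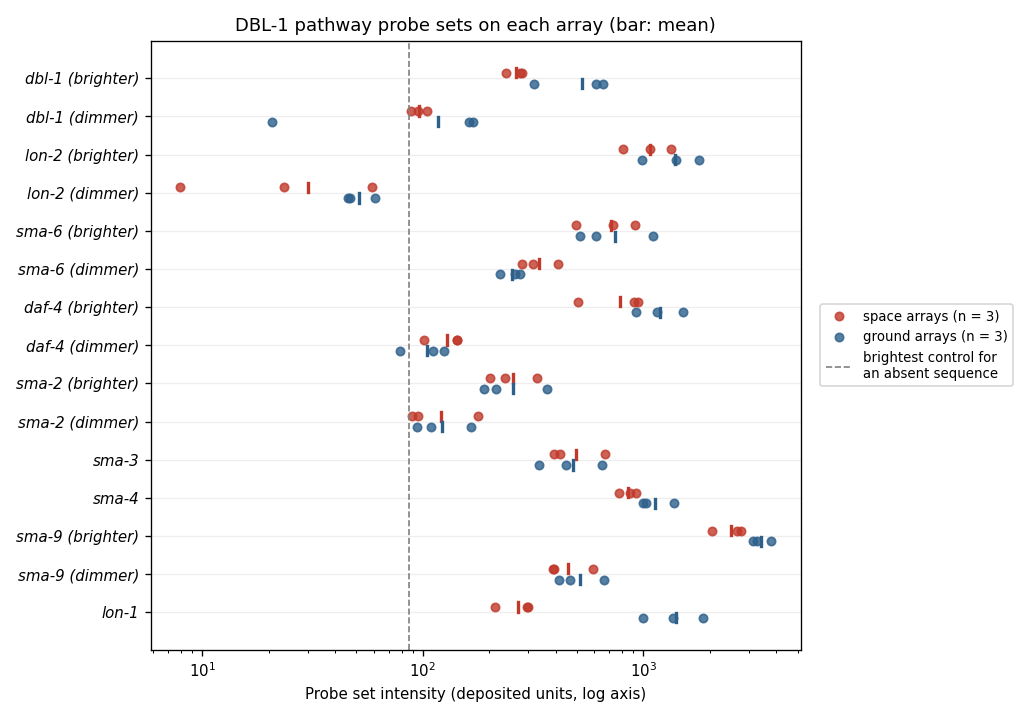
Intensity of each of the 15 probe sets on each array (log axis), with space arrays in red, ground arrays in blue and bars at the group means (n = 3 each). The lon-1 groups stand far apart, at 213 to 301 in space and 998 to 1866 on the ground, while most other rows intermingle. The dashed line marks the brightest control for an absent sequence, 86.7.

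The end of the pathway held its one call. lon-1 encodes a secreted protein of the cysteine-rich, pathogenesis-related (CRISP) family made in the hypodermis and the intestine. Loss of it makes worms long, and in mutant studies its transcript is lowered by DBL-1 signalling. Probe set 187318_at read 297, 213 and 301 on space arrays 1 to 3 and 1866, 1365 and 998 on ground arrays 1 to 3. All space values thus lay below all ground values, with the lowest ground array at more than 3 times the highest space array. The means were 270.4 ± 49.6 and 1410 ± 436 (SD, n = 3 each), a ratio of 5.21 in favour of the ground. The log2 fold change was -2.29 ± 0.28 (SE), with a 95% interval of -2.94 to -1.63 and a limma adjusted p of 0.00635. Of 17118 genes, 23 had a lower log2 fold change. The call held in 15 of 16 alternatives, with values of -2.67 to -2.06, and was lost where space condition 1 and ground control 3 were both left out (-2.58, adjusted p = 0.0583), a setting in which limma called no probe set on the whole array and had 5176 at an unadjusted p under 0.05. With the actin and Gapdh 5'/3' ratio as a covariate it stood at -2.67 (adjusted p = 0.012). The hypodermis markers that fell with it, dpy-18 (-1.20 ± 0.22) and pdi-2 (-1.20 ± 0.29), encode subunits of the collagen prolyl hydroxylase. dpy-18 lost its call without space condition 2 or 3 or ground control 2 (-1.27 to -1.06), and pdi-2, read by probes shared with other sequences, without any single array but space condition 1 (-1.35 to -1.02). Dimmer probe sets of dpy-18 stood at -1.17 and -0.70 (limma adjusted p = 0.0762 and 0.126). That of pdi-2 stood at -0.99 (adjusted p = 0.0691), and none of these passed. Intestine markers gave sums of 23180 to 27406 in space and 22912 to 30805 on the ground, which overlapped. Most of each sum was asp-1 (means of 19630 in space and 21614 on the ground). Of the 7 intestine markers 4 had negative values and none was called. ges-1, read by probes shared with other sequences, was higher in space without overlap but under 2-fold (0.94 ± 0.22, limma adjusted p = 0.0395).

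**Figure D2:**
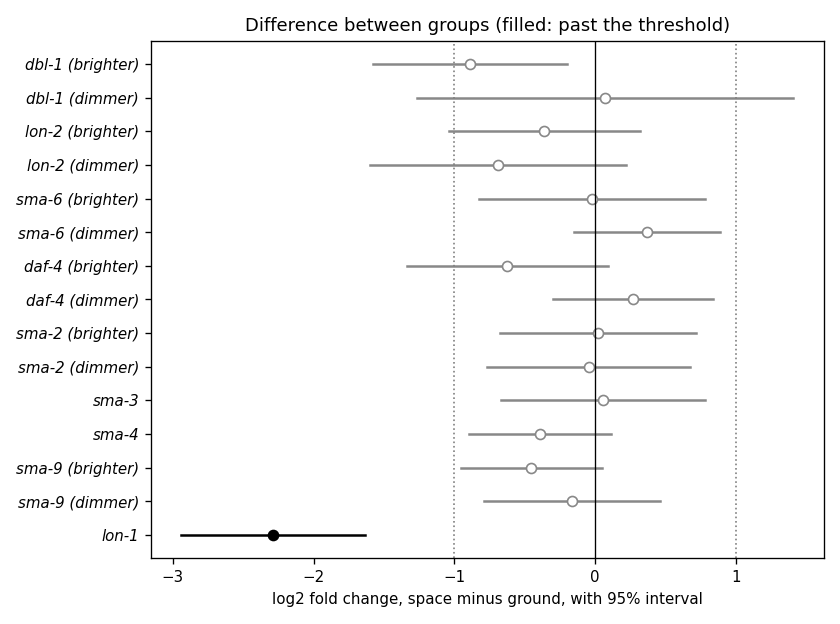
Log2 fold change (space minus ground) of the 15 probe sets with 95% intervals from limma, filled where called; dotted lines mark 2-fold. The interval of lon-1 (-2.94 to -1.63) lies wholly beyond 2-fold, and that of the brighter dbl-1 probe set (-1.57 to -0.20) leaves out 0 without passing adjustment.

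Of the signal itself, dbl-1 was read by probe sets 175643_s_at and 193109_s_at, both marked as sharing probes with other sequences. The brighter, 175643_s_at, had intensities of 276, 281 and 239 in space and 608, 655 and 319 on the ground. The groups did not overlap, though ground control 3 came close to the space arrays. The means were 265 ± 22.8 and 527 ± 182, and the log2 fold change was -0.89 ± 0.30 (unadjusted p = 0.0177, limma adjusted p = 0.111). Without ground control 3 it came to -1.21 (adjusted p = 0.0349) and passed, as it did after quantile normalization (-1.07, adjusted p = 0.0499). The dimmer probe set, 193109_s_at, read 104, 95.5 and 87.9 in space and 168, 162 and 20.7 on the ground. Here too ground control 3 stood apart from the other ground arrays, this time below every space array. The mean intensity was lower in space (95.8 against 117) while the log2 fold change was slightly positive. That change of 0.07 ± 0.58 turned to -0.70 without that array (adjusted p = 0.122) and to -0.83 with the 5'/3' covariate (adjusted p = 0.305). The neuron markers, cells in which dbl-1 is made, had sums of 24367 to 26959 in space and 31541 to 34889 on the ground. Much of each sum was snb-1 (means of 9569 in space and 12765 on the ground) and egl-3 (6665 and 8737). Neither was called (limma adjusted p = 0.292 and 0.253), and a dimmer egl-3 probe set had the opposite sign, at 0.45. In the list 10 values were negative and 3 positive. Of 13 genes 1 was lower and 0 higher, where 2.42% of all genes were lower and 5.34% higher. In limma, 2 were lower and 0 higher at an unadjusted p under 0.05. The one called was rab-3 (-1.07 ± 0.21), which lost its call without any single array but ground control 3 (-1.17 to -0.98). Its probe set shares probes with other sequences. A dimmer rab-3 probe set with a mean of 77.4 had the opposite sign, at 0.47 (limma adjusted p = 0.617).

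**Figure D3:**
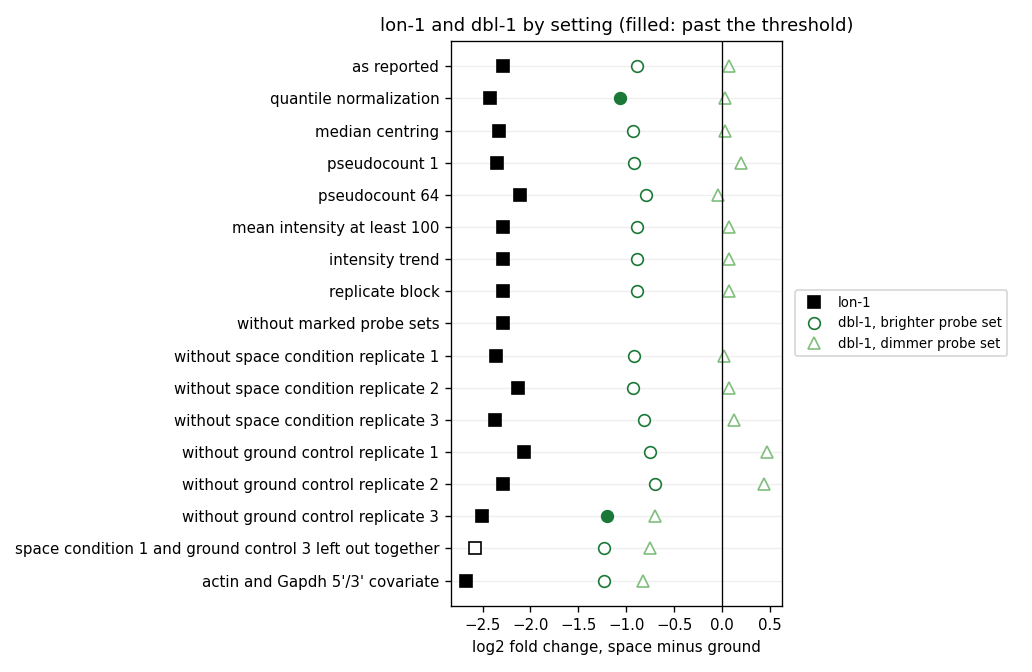
Log2 fold change of lon-1 and of both dbl-1 probe sets under each processing setting, filled where called. lon-1 stays between -2.67 and -2.06 throughout, the brighter dbl-1 probe set between -1.23 and -0.70, and the dimmer one changes sign when ground control 3 is left out.

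lon-2 encodes a glypican, a cell-surface proteoglycan that binds DBL-1 and restrains it. Probe set 174576_at read 811, 1332 and 1074 in space and 982, 1784 and 1412 on the ground, so the groups overlapped. The log2 fold change was -0.36 ± 0.29, with a 95% interval of -1.04 to 0.32 (limma adjusted p = 0.516). The second probe set, 188083_at, lay below the brightest absent control on all 6 arrays, at 7.95 to 59.1 in space and 45.9 to 60.7 on the ground. Its value of -0.69 ± 0.39 (adjusted p = 0.335) is therefore close to background.

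The receptors are SMA-6, the type I kinase, and DAF-4, the type II kinase that the pathway shares with the dauer branch. For sma-6, probe set 175759_at read 494, 921 and 729 in space and 514, 611 and 1102 on the ground. The groups intermingled fully, with a log2 fold change of -0.02 ± 0.35 and a 95% interval of -0.83 to 0.79. Its dimmer probe set 192084_s_at read 283, 411 and 315 in space and 225, 276 and 263 on the ground. This was the one probe set of the pathway with all space arrays above all ground arrays, by 0.37 ± 0.22 (adjusted p = 0.364). It is marked as sharing probes with other sequences.

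For daf-4, probe set 175667_at read 505, 905 and 941 in space and 929, 1147 and 1509 on the ground. The groups overlapped by a narrow margin, and space condition 1 was the lowest array. The log2 fold change of -0.62 ± 0.31 (interval -1.34 to 0.09, adjusted p = 0.265) came to -0.34 without space condition 1, -0.44 without ground control 3 and -0.16 without both. The dimmer probe set 176598_s_at had the opposite sign, at 0.27 ± 0.25, with 143, 101 and 143 in space and 111, 125 and 78.7 on the ground. That probe set too is marked as sharing probes with other sequences. Among the 6 genes with 2 probe sets, the change differed most between the probe sets of dbl-1, by -0.96, and of daf-4, by -0.89, with exact permutation p values of 0.1 and 0.2 (two-sided, 0.6 for both after adjustment over the 6 genes). With 3 arrays against 3 the smallest p that this test allows is 0.1.

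Below the receptors act SMA-2 and SMA-3, the Smads that the receptors phosphorylate, and SMA-4, the common partner Smad. The brighter sma-2 probe set, 175664_s_at, read 202, 236 and 328 in space and 189, 215 and 365 on the ground. Both sma-2 probe sets are marked as sharing probes with other sequences. sma-3 (188523_at) read 391, 419.9 and 671 in space and 338, 446 and 650.1 on the ground. In both genes the arrays of a group differed from each other by more than the group means did. The log2 fold changes were 0.02 ± 0.30 for sma-2 (interval -0.68 to 0.72) and 0.05 ± 0.31 for sma-3 (interval -0.67 to 0.78). The dimmer sma-2 probe set, 176577_s_at, gave -0.05 ± 0.31 (interval -0.77 to 0.68), from 89.5 to 177 in space and 93.6 to 165 on the ground. These intervals leave out a 2-fold difference in either direction but not smaller ones, and no test passed (adjusted p = 0.939 to 0.975).

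sma-4 (176599_at) read 869.8, 925 and 771 in space and 1373, 997 and 1032 on the ground. Every space array was below every ground array, with a log2 fold change of -0.39 ± 0.22 (interval -0.90 to 0.12, adjusted p = 0.328). SMA-9 is a large zinc-finger transcription factor related to Schnurri of Drosophila, which works with the Smads. Its brighter probe set, 174615_at, read 2056, 2656 and 2759 in space and 3790.3, 3140.2 and 3263 on the ground. These groups did not overlap either, with means of 2490 ± 379 and 3398 ± 345 and a log2 fold change of -0.45 ± 0.22 (interval -0.95 to 0.05, adjusted p = 0.248). The dimmer one, 194009_at, overlapped between the groups (387 to 590.0 in space, 416 to 664 on the ground) at -0.17 ± 0.27. In all, the groups did not overlap for 5 of 15 probe sets (lon-1, the brighter ones of dbl-1 and sma-9, sma-4, and the dimmer one of sma-6), where 30.2% of all tested probe sets had groups without overlap.

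Genes that adjust the pathway were listed apart from its core, and 14 of 16 were measured. Of these 2 fell, 1 rose and 11 did not pass, with a median of -0.47 against -0.02 over all genes. Over the array 2.42% of genes were called lower and 5.34% higher. adt-2, which encodes a secreted ADAMTS protease needed for normal body length, read 606, 542 and 546 in space and 1423, 1544 and 952 on the ground. Its log2 fold change was -1.16 ± 0.24 (limma adjusted p = 0.0274), while a dimmer probe set with a mean of 71.3 stood at -0.08. kin-29, a kinase of the salt-inducible family that acts on body size in sensory neurons, read 1798, 1944 and 1596 in space and 3993, 3608 and 3497 on the ground. It changed by -1.05 ± 0.20 (adjusted p = 0.02), and its dimmer probe set by -0.55 (adjusted p = 0.144). bra-2, of a family named for binding a bone morphogenetic protein receptor, was the one that rose, from 793, 708 and 697 on the ground to 1315, 1544 and 1694 in space (1.03 ± 0.20, adjusted p = 0.0233). These 3 calls sat close to the 2-fold limit and to the p limit. adt-2 lost its call in 7 of 16 alternatives, kin-29 in 6 and bra-2 in 10, and each lost it without space condition 3 (-1.14, -0.98 and 0.95) and without ground control 2 (-1.02, -1.07 and 1.01). Without space condition 2, adt-2 (-1.13), kin-29 (-1.12) and bra-2 (1.01) lost it as well, and the first 2 also without space condition 1 (-1.21 and -1.06) or ground control 1 (-1.08 and -0.995). bra-2 lost it without ground control 3 (1.00) and after quantile normalization (0.93).

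Among modulators that did not pass, sma-10, which encodes a leucine-rich transmembrane protein that promotes signalling, stood at 0.73 ± 0.22 (adjusted p = 0.0867) with all space arrays above all ground arrays (802 to 1026 against 491 to 675). The nuclear factor gene mab-31 stood at -0.80 ± 0.25 (adjusted p = 0.0903) and egl-4, a cGMP-dependent kinase gene, at -0.69 ± 0.21 (adjusted p = 0.0849). The brightest of the list, the ADAM protease gene sup-17, stood at -0.54 ± 0.20 (adjusted p = 0.148). The repulsive guidance molecule gene drag-1, a co-receptor, lay below the brightest absent control on all arrays (8.33 to 52.3).

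Reported outputs of the pathway were listed as the caenacin family (epidermal antimicrobial peptides, of which cnc-2 and its neighbours are reported to need DBL-1), the collagen genes rol-6, col-41, col-141, col-142 and lon-3, the lysozyme gene lys-8, the male tail gene mab-21 and spp-9. Of 19 genes 15 were measured, and 6 fell, with a median of -0.87, where 2.42% of all genes fell and 5.34% rose. None rose in limma, and 1 was higher at an unadjusted p under 0.05. Of the 15, 10 had a group mean below the brightest absent control, where the size of a change depends on the pseudocount. The list was drawn up with falls of cnc-3, cnc-4 and rol-6 already known, so its count is no independent evidence.

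**Figure D4:**
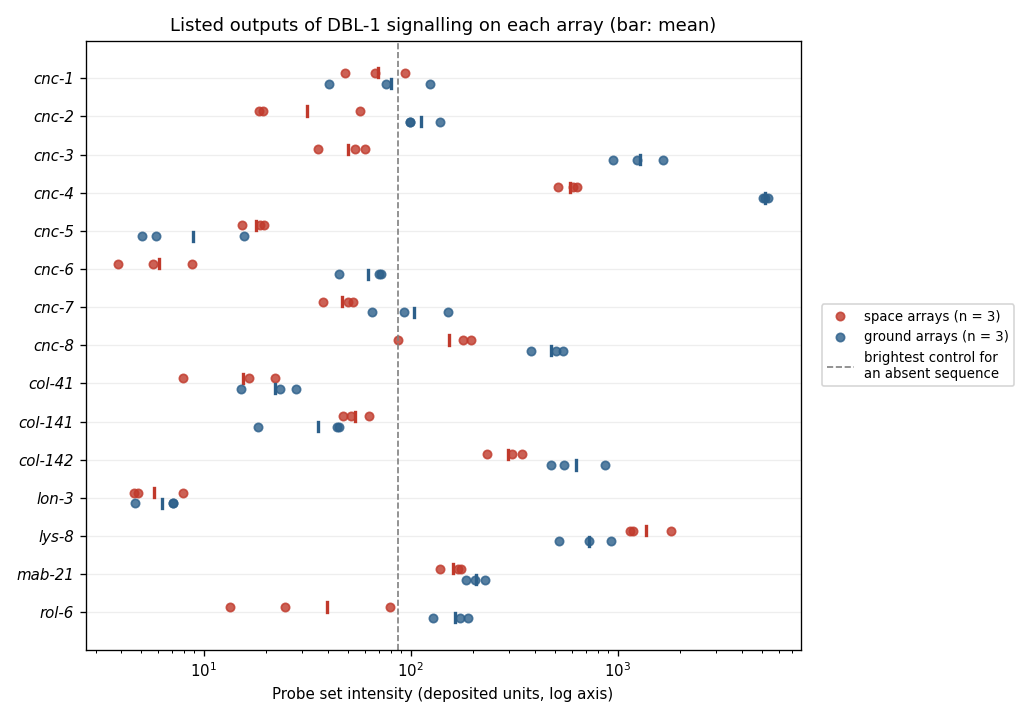
Intensity of the 15 measured output genes on each array (log axis), with space arrays in red, ground arrays in blue and bars at group means (n = 3 each). cnc-3 and cnc-4 show the widest gaps, lys-8 lies higher in space, and cnc-5, col-41 and lon-3 sit far below the dashed line at 86.7.

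Of 8 measured caenacin genes 5 fell and 0 rose, where 2.42% of all genes fell and 5.34% rose. In limma 0 were higher at an unadjusted p under 0.05. cnc-4 read 517, 610.2 and 633 in space against 5335, 5037 and 5184 on the ground. Its arrays within a group were close together and the log2 fold change was -3.11 ± 0.20 (limma adjusted p = 0.000886). cnc-3 read 60.3, 53.7 and 35.8 against 1656, 1235 and 950.2, a change of -4.28 ± 0.27. cnc-8 read 87.1, 197 and 178 against 381, 548 and 502, a change of -1.59 ± 0.32 (adjusted p = 0.0237). All ground arrays stood above all space arrays in these 3 genes. The probe sets of cnc-1, cnc-2, cnc-3 and cnc-7 share probes with other sequences. Whether those sequences include other caenacin genes was not tested, so the 5 falls may not all be separate. All space values of cnc-3 lay below the brightest absent control, so the size of its fall depends on the pseudocount. Setting the pseudocount to 1 or 64 moved cnc-3 to -4.65 or -3.53. cnc-2 (-1.51 ± 0.33) and cnc-6 (-1.81 ± 0.23) fell from ground means of 112 and 62.3 to space means of 31.6 and 6.09, within the range of absent controls, and with a pseudocount of 64 they came to -0.90 and -0.84. cnc-7 (-0.87 ± 0.30), cnc-1 (-0.10 ± 0.36) and cnc-5 (0.47 ± 0.23) did not pass. Without space condition 3, cnc-2 (-1.32) and cnc-8 (-1.72) lost their calls, as they did without ground control 2 (-1.37 and -1.48) or ground control 3 (-1.58 and -1.55). cnc-2 also lost it without space condition 1 (-1.34) or ground control 1 (-1.58), while cnc-3, cnc-4 and cnc-6 kept theirs in each fit that left out 1 array. cnc-6, however, lay below the brightest absent control on all arrays.

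Among the collagens, rol-6 read 13.4, 79.7 and 24.8 in space against 172, 128 and 189 on the ground, a change of -1.87 ± 0.42 (adjusted p = 0.0345). It passed without space condition 2 and lost its call when any other array was left out (-2.01 to -1.50), and with the replicate number as a block it stood at the same value with an adjusted p of 0.0595. col-142 had no overlap, at 233 to 346 in space and 479 to 870.2 on the ground, but missed the threshold (-1.03 ± 0.28, adjusted p = 0.0633), which it passed after quantile normalization (-1.21, adjusted p = 0.0291) and in 4 other alternatives. lon-3, which encodes a cuticle collagen and shares the long phenotype with lon-1 and lon-2, had intensities of 4.59 to 7.93 on all arrays, at the level of absent controls. lys-8 went the other way, at 1146 to 1802 in space and 519 to 930.2 on the ground (0.92 ± 0.29, adjusted p = 0.096).

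The DAF-7 branch, which controls dauer entry, shares the receptor DAF-4. Of its 6 other genes 1 was called, daf-5 (-1.11 ± 0.21, limma adjusted p = 0.0204), where 2.42% of all genes were called lower. None was called higher, where 5.34% of all genes were, and 4 values were negative and 2 positive. The positive ones were daf-14 (0.30) and daf-8 (0.12). A dimmer daf-14 probe set stood at 0.83 (limma adjusted p = 0.056), with all space arrays above all ground arrays. The type I receptor gene of the branch, daf-1, passed the p limit without reaching 2-fold (-0.86 ± 0.20, adjusted p = 0.0398), which it did after quantile normalization (-1.02). The daf-5 probe set shares probes with other sequences, 2 dimmer ones stood at -0.67 and -0.37, and the call was lost without any one of space conditions 1 to 3 or ground controls 1 and 3 (-1.17 to -1.01).

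**Figure D5:**
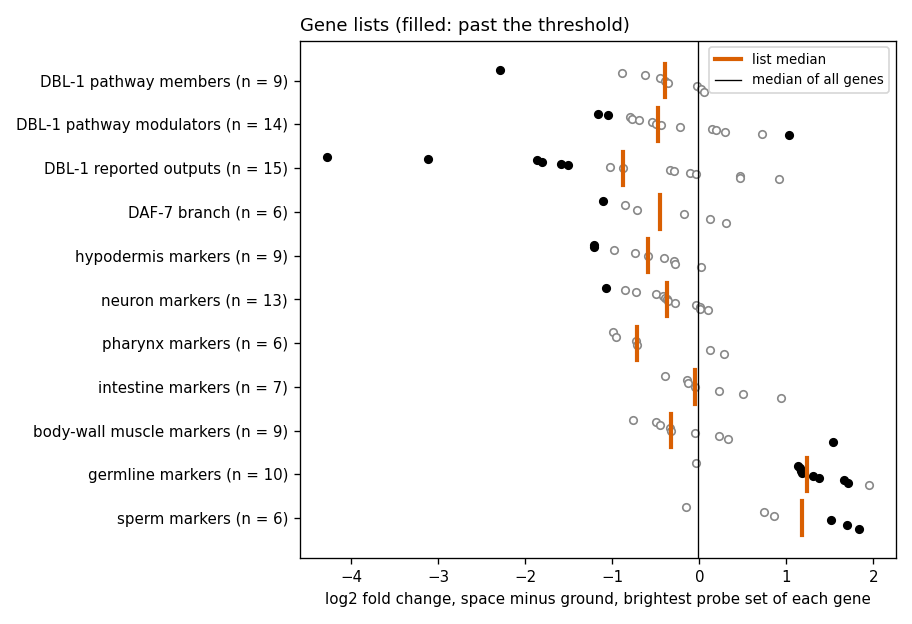
Log2 fold change of every measured gene (brightest probe set) in each list, filled where called, with the list median in orange and the median of all genes as a black line. The pathway's own values lie between -2.29 and 0.05, and the widest falls are among the outputs (to -4.28). The germline markers lie mostly above 1, and the sperm markers between -0.15 and 1.84.

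The genes whose levels ran most like those of lon-1 over the 6 arrays were apy-1, an apyrase gene (Pearson r = 0.999), cbs-1, named for cystathionine beta-synthase (0.997), F14F8.8 (0.995), Y37A1A.2 (0.994) and slc-25A18.1, a solute carrier gene (0.994). F14F8.8 read 144, 108 and 146 in space and 767, 628 and 558 on the ground, with the same order of arrays as lon-1. Its log2 fold change was -2.17 ± 0.23, while apy-1 stood at -1.06 ± 0.21 and slc-25A18.1 at -0.79 ± 0.21. The 6 points form the 2 groups, so a gene clearly lower in space correlates highly with lon-1, and one clearly higher there negatively. Of 8687 genes brighter than the median probe set, 225 had r above 0.95.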

How the data were processed

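The authors deposited a linear intensity for each probe set on each array. The probe summary method is not given in the sources. All arrays had a 2%-trimmed mean of 500.1 to 500.2, so the deposited intensities had been scaled. After removal of 77 array controls from the 22625 probe sets, limma 3.58.1 (lmFit, eBayes; R 4.3.3) compared the groups on log2(intensity + 16), without further terms. P-values were adjusted by Benjamini-Hochberg over the remaining 22548. Fold changes are on that scale, which understates the change of dim genes. The number of arrays limits the precision. Symbols came from the platform annotation, updated by gene identifier through a RefSeq table of WBcel235 (20701 of 20766 probe sets with 1 symbol matched), and the probe set with the highest mean stood for a gene in lists. Named genes were all members, list genes past the threshold, the brightest of each list and the 5 genes most correlated with a called member. Other genes were named after their values were seen. The members and lists were chosen with earlier results of these data known. The fit was tested on simulated data. Same-numbered arrays deviated together at correlations of 0.39, 0.06 and 0.17, and differently numbered ones at -0.28 to 0.16. These values do not settle whether the numbers pair arrays. The main fit left the numbers out, and an alternative blocked on them. Alternatives covered normalization, pseudocount, a dim filter, a variance trend, the replicate block, marked probe sets, left-out arrays and a 5'/3' covariate. Plots used matplotlib 3.10.9 (Python 3.11.15).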

Additional observations from a re-analysis of the deposited data

How the results depend on the processing

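The number of called probe sets over the array moved from 1648 to 1027 with a pseudocount of 1, 905 without marked probe sets (15837 tested), 1097 with the 5'/3' covariate and 0 without both space condition 1 and ground control 3. It was 588 to 1201 with 1 array left out. Calls that were higher made up 70.5%, and 58.8% after quantile normalization. The count of pathway probe sets called lower moved from 1 to 2 after quantile normalization and was 0 without that pair of arrays. Its range was 1 to 2 when leaving out 1 array. The count called higher was 0 in every alternative. Over the 5 lists of related genes, 10 were lower and 1 higher. The lower count came to 6 with a pseudocount of 1 and 0 without that pair, and to 3 to 6 with 1 array left out. The higher count came to 0 after quantile normalization, median centring, pseudocounts of 1 or 64, the 5'/3' covariate and without that pair. It ranged from 0 to 1 with 1 array left out. 

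Values near 0 changed sign, none of them called. The dimmer dbl-1 probe set came to -0.041 with a pseudocount of 64 and -0.83 with the covariate (-0.70 to 0.47 leaving out 1 array). Without both space condition 1 and ground control 3 it came to -0.75. The brighter sma-6 probe set came to 0.54 without that pair of arrays and 0.51 with the covariate (-0.24 to 0.30 leaving out 1 array). The brighter sma-2 probe set came to -0.14 after quantile normalization and -0.020 after median centring (-0.16 to 0.29 leaving out 1 array). The dimmer sma-2 probe set came to 0.29 without that pair of arrays and 0.34 with the covariate (-0.33 to 0.16 leaving out 1 array). sma-3 came to -0.15 after quantile normalization (-0.18 to 0.29 leaving out 1 array) and the dimmer sma-9 probe set to 0.027 without ground control 1 (-0.36 to 0.027 leaving out 1 array). cnc-1 came to 0.22 without that pair of arrays and 0.31 with the covariate (-0.44 to 0.22 leaving out 1 array), and lon-3 to 0.024 and 0.0499 (-0.10 to 0.0043). The cause of these shifts was not tested. With the replicate block 1741 probe sets were called, rol-6 lost its call and col-142 gained one (-1.03, adjusted p = 0.0476). No other gene named moved across the threshold. The SE of the brighter daf-4 probe set came to 0.19 (limma unadjusted p = 0.0219, adjusted p = 0.106) and that of sma-3 to 0.17. For each ground array the same-numbered space array correlated best. Space condition 2, however, correlated better with ground control 3 (0.16) than with ground control 2 (0.06). Probe sets near the level of absent controls limit what can be said of lon-2's dimmer probe set, drag-1, lon-3, col-41, col-141, cnc-5 and cnc-6.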

Other observations

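Body size genes outside the pathway were also read. Of 13 measured genes of this kind 1 fell and 0 rose, where 2.42% of all genes fell and 5.34% rose. In limma 0 were higher at an unadjusted p under 0.05, and the median was -0.26. The one that fell was dpy-18, which encodes the catalytic subunit of a collagen prolyl hydroxylase. It read 637, 626 and 459.8 in space against 1371, 1374 and 1252 on the ground. The call was lost without space condition 2 or 3 or ground control 2 (-1.27 to -1.06). Dimmer dpy-18 probe sets stood at -1.17 and -0.70 and did not pass. The brightest, sma-1, which encodes a heavy beta-spectrin of epithelial cells, read 2040, 2520 and 2187 in space against 4269, 4790 and 4201 on the ground. Its groups stood apart and it passed the p limit without reaching 2-fold (-0.97 ± 0.20, limma adjusted p = 0.0265), which it did after median centring (-1.02). A dimmer sma-1 probe set overlapped between the groups, at -0.38 (limma adjusted p = 0.505). sma-5, a kinase gene, stood at 0.31 ± 0.19 (adjusted p = 0.376), and the cuticle collagen genes dpy-13 and dpy-2 at -0.94 ± 0.33 and -0.94 ± 0.28 (adjusted p = 0.124 and 0.0798). A dimmer dpy-2 probe set with a mean of 19.1 stood at 0.07.

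Of the other TGF-beta ligand genes, tig-2 read 670, 806 and 849 in space against 1045, 952 and 1121 on the ground (-0.42 ± 0.20, adjusted p = 0.258), and unc-129, a guidance ligand gene expressed in muscle and some neurons, stood at 0.28 ± 0.25 (adjusted p = 0.552). Neither passed, in limma also at an unadjusted p under 0.05.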
